A study of Homo sapiens with 6 samples.

Results

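The genes described here code for the receptors of 3 neurotransmitters: glutamate, gamma-aminobutyric acid (GABA) and acetylcholine. They were taken by symbol, as every gene row named GRIA, GRIK, GRID or GRIN with a subunit, GRM with a number, or beginning with GABR, CHRNA, CHRNB or CHRM, without antisense or related forms. This gave 63 of the 27961 genes counted: 26 glutamate, 19 GABA and 18 acetylcholine receptor genes. They were measured by RNA sequencing in SH-SY5Y, a human neuroblastoma line of sympathetic, noradrenergic character that is widely used as a neuron-like cell. Cells had been infected with lentivirus carrying a short hairpin RNA (shRNA) in medium with polybrene at 8 µg per mL, which aids viral entry, and selected with puromycin at 2 µg per mL for 3 days, starting 48 hours after infection.

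The 3 hairpin groups compared held 2 libraries each. The TARDBP hairpin group carried the single hairpin TRCN0000016038 against TARDBP, the gene of the RNA-binding protein TDP-43. Control hairpin 1 was SHC007 and control hairpin 2 was SHC016. All 6 libraries therefore came from infected, puromycin-selected cells, and the uninfected cells that served to follow the selection were not sequenced among these 6. With 1 hairpin against TARDBP, the loss of TARDBP and any other effect of that hairpin cannot be told apart. The labels do not say whether the replicates were separate cultures, so a p-value here reflects how far these libraries spread, and that spread may be technical only.

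Glutamate acts on ion channels of the AMPA (GRIA), kainate (GRIK) and NMDA (GRIN) type and on G protein-coupled metabotropic receptors (GRM), while the delta receptors (GRID) bind glycine or serine and cerebellin and organise synapses. GABA-A receptors are pentameric chloride channels built from GABR subunits, and the rho subunits form channels of their own. Acetylcholine opens the pentameric nicotinic receptors (CHRNA and CHRNB) and signals through the G protein-coupled muscarinic receptors (CHRM). In sympathetic ganglia the main nicotinic receptor holds the alpha-3 and beta-4 subunits, often with alpha-5, and it carries fast transmission between the preganglionic and the postganglionic neuron. TDP-43 binds UG-rich RNA in introns and 3′ untranslated regions (UTRs) and represses the use of cryptic exons.

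The libraries held between 18605745 and 21698339 counts each. TARDBP itself had 365 and 462 counts in the TARDBP hairpin libraries, 1587 and 1478 in control hairpin 1 and 1761 and 1730 in control hairpin 2, a log2 fold change of −1.93 (SE 0.126). Below, levels are counts per 1000000 of the scaled library size (CPM), a gene was called when its adjusted p was below 0.05 in edgeR's quasi-likelihood test with Benjamini-Hochberg adjustment over 17163 features, and fold changes are log2 with their standard error. The main comparison set the TARDBP hairpin against the mean of the 2 control groups. The comparisons with each control share the TARDBP hairpin libraries, and their values are given side by side.

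Of the 63 receptor genes, 34 had enough counts to be tested and 29 did not, 10 of those with 0 counts in every library. The neuronal subunits best known from brain were among the untested: GRIA1 (at most 22 counts in any library), GRIN2A and GRIN2B, GRIN3A and GRIN3B (at most 13 for these 4 NMDA genes), and 12 GABA-A genes including GABRA2 and GABRB2 (at most 9). The others included the kainate gene GRIK1 (at most 4), the metabotropic genes GRM3, GRM4, GRM5 and GRM6 (at most 8), and the nicotinic genes CHRNA1, CHRNA2, CHRNA4, CHRNA6, CHRNA9 and CHRNB3 (at most 10). All 5 muscarinic genes passed. These 29 genes were not tested in the comparisons reported here.

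Start regions are shown for the called genes with the lowest p in each class that have one in the table and are named here, CHRNA3, CHRM2 and GRIN2D, and for CHRNB4, added after its values were seen because it adjoins CHRNA3. GABRA3, also chosen by this rule, had no window there. CHRNA5, CHRNA3 and CHRNB4 are neighbours on chromosome 15 with no protein-coding gene between them, and the CHRNA5 and CHRNA3 spans overlap. The windows below run from 250 bases before to 50 after the RefSeq start (GRCh38.p14), written 5′ to 3′ on the gene's strand. They are CHRNA3 at chr15:78620947-78621246 (minus strand) and CHRNB4 at chr15:78641161-78641460 (minus strand), CHRM2 at chr7:136868402-136868701 (plus strand, the outermost of its starts), and GRIN2D at chr19:48393418-48393717 (plus strand). Capitals mark GGGCGG, the GC box bound by SP family factors, and CAGCTG, an E-box, each read on both strands.
CHRNA3: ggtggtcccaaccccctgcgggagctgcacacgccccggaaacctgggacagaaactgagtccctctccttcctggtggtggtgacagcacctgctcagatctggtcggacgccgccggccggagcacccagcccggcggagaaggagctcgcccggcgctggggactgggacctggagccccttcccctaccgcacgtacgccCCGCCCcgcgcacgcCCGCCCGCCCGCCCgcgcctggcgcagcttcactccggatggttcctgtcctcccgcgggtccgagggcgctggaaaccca
CHRNB4: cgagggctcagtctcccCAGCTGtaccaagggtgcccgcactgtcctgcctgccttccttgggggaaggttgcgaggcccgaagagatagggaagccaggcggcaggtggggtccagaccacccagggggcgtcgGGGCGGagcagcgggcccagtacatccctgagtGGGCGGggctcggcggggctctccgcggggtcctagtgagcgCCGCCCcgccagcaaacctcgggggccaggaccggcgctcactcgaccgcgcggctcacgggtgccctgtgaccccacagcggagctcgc
CHRM2: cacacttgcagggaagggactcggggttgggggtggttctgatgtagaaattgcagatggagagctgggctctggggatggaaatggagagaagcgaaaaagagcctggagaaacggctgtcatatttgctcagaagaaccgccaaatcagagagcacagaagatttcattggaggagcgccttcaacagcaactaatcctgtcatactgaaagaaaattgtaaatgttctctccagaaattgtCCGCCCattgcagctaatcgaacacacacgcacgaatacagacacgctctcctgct
GRIN2D: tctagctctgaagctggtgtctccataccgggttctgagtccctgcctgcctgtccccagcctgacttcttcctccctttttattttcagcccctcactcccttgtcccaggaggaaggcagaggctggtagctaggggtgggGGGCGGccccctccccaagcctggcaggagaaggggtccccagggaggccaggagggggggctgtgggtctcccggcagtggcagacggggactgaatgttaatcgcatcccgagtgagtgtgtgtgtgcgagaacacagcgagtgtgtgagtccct
The CHRNA3 window holds 4 GC boxes and no CAGCTG, the CHRNB4 window 3 GC boxes and 1 CAGCTG, and the CHRM2 and GRIN2D windows 1 GC box each. Over all 35116 RefSeq promoter windows of this length, 45% held GGGCGG and 17.9% held CAGCTG. Counted by gene, in any of its windows, 48.3% and 21.1% of 27305 genes held them, and 23 and 10 of the 45 receptor genes with a window in the table. The cyclic AMP response element TGACGTCA stood in 1.85% of all windows, in 2.25% of genes and in none of these 45, which says only that these letters are not there.

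Since TDP-43 binds UG repeats, the annotated transcripts (GENCODE v29, introns left out) were searched for at least 12 alternating T and G bases. Such a run was found in 9 of the 63 receptor genes, as against 7.07% of 19148 protein-coding genes, and in 5 of the 34 tested. The 3 tested genes with a run in a 3′ UTR follow with the run in capitals.
CHRNA7: gtgtgcgGTGTGTGTGTGTGTGTaagtgtg
GRID1: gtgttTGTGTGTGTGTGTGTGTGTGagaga
GRIK3: tgcatgctgGTGTGTGTGTGTGcacatgta
Their runs are 16, 20 and 13 bases long. Of the 3, CHRNA7 was called lower in the main comparison and GRID1 and GRIK3 were not called. CHRNB1, called higher there, held the longest run of the receptor genes, 46 bases, in a noncoding transcript. A run is a description of the sequence, and binding was not measured in these files.

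Set per kilobase of exon (per kb), which allows levels to be compared between genes, CHRNA3 was the most abundant receptor gene in each group. Its group means were 26.8 CPM per kb under the TARDBP hairpin, 108 under control hairpin 1 and 29.9 under control hairpin 2. CHRNB2 was next in each group, at 7.88, 19.3 and 10.8 CPM per kb. CHRM2, GRIK5, CHRNB4 and CHRNA5 filled ranks 3 to 6 in all 3 groups, in changing order. GRIK5 was the highest glutamate receptor gene, at 6.04, 7.29 and 7.66 CPM per kb.

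**Figure D1:**
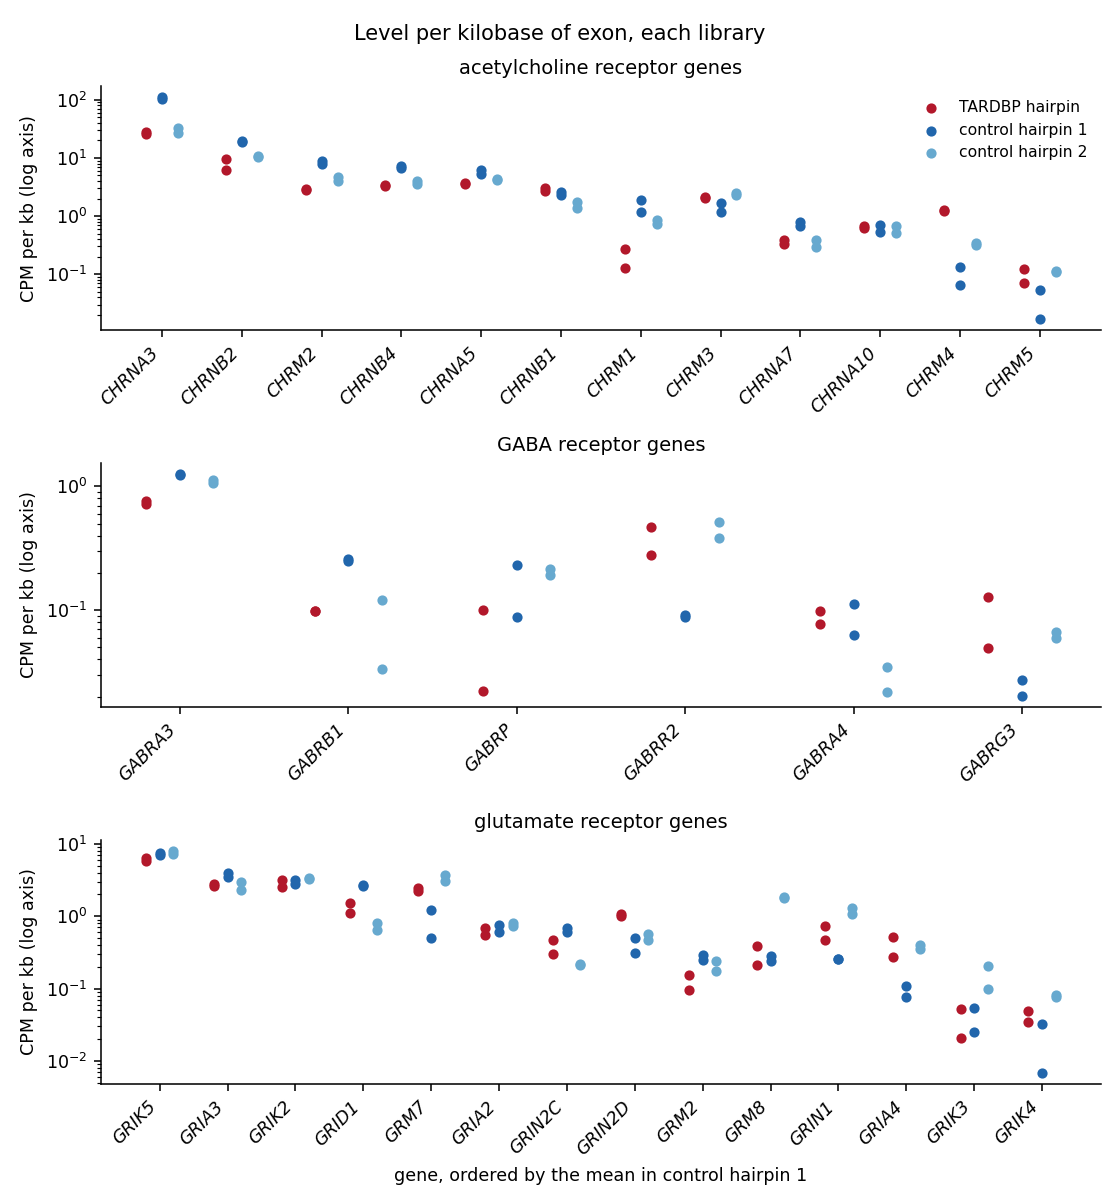
Level of 32 of the 34 tested receptor genes in each of the 6 libraries, in CPM per kilobase of exon on a log axis; each point is 1 library, coloured by hairpin group. CHRNA3 is the highest gene in every group, and its control hairpin 1 libraries stand apart from the other 4.

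Summed over the 18 acetylcholine receptor genes, the TARDBP hairpin libraries held 284 and 273 CPM, control hairpin 1 held 811 and 796, and control hairpin 2 held 315 and 335. Control hairpin 1 stood far above the other groups, mostly through the nicotinic genes. The 19 GABA receptor genes summed to 30.1 and 22.7 CPM under the TARDBP hairpin, 60.1 and 56.4 under control hairpin 1, and 38.3 and 36.1 under control hairpin 2. The 26 glutamate receptor genes summed to 134 and 121, 129 and 130.0, and 154.9 and 154.8 CPM. Both control hairpin 2 libraries thus stood above all other libraries, and the members of this class moved in both directions.

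Against the mean of the controls, 5 of the 34 tested receptor genes were higher and 12 lower under the TARDBP hairpin. Over all features tested, 23.9% were higher and 24.3% lower, so the lower count lay above the background and the higher count below it. The median log2 fold change of the 34 was −0.19, beside 0.04 over all features. Named here among the genes called lower are CHRM1, CHRM2, CHRNA3, CHRNA5, CHRNA7, CHRNB2, CHRNB4, GABRA3, GRIK5, GRM2 and GRM8, and among those called higher CHRM4, CHRNB1, GRIA4 and GRIN2D. This comparison averages 2 control groups that differed from each other in many of the same genes. When the 4 control libraries were instead fitted as 1 group, so that the distance between the controls counted as error, 3 receptor genes were higher (CHRM4 and GRIN2D among them) and 1 was lower (CHRM1), with 6.14% of all features higher and 8.84% lower. In bulk libraries, fewer cells that express a gene and less RNA per cell cannot be told apart.

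By the libraries themselves, both TARDBP hairpin libraries lay above all 4 control libraries in 4 of the 34 genes and below all 4 in 9. Over all features tested, 23.3% lay above and 22.8% below in this way. Those above included CHRM4, CHRNB1 and GRIN2D, and those below included CHRM1, CHRM2, CHRNA5, CHRNB2, CHRNB4, GABRA3, GRIK5 and GRM2. The TARDBP hairpin mean lay between the 2 control means in 13 genes, beside 30.0% of all features.

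**Figure D2:**
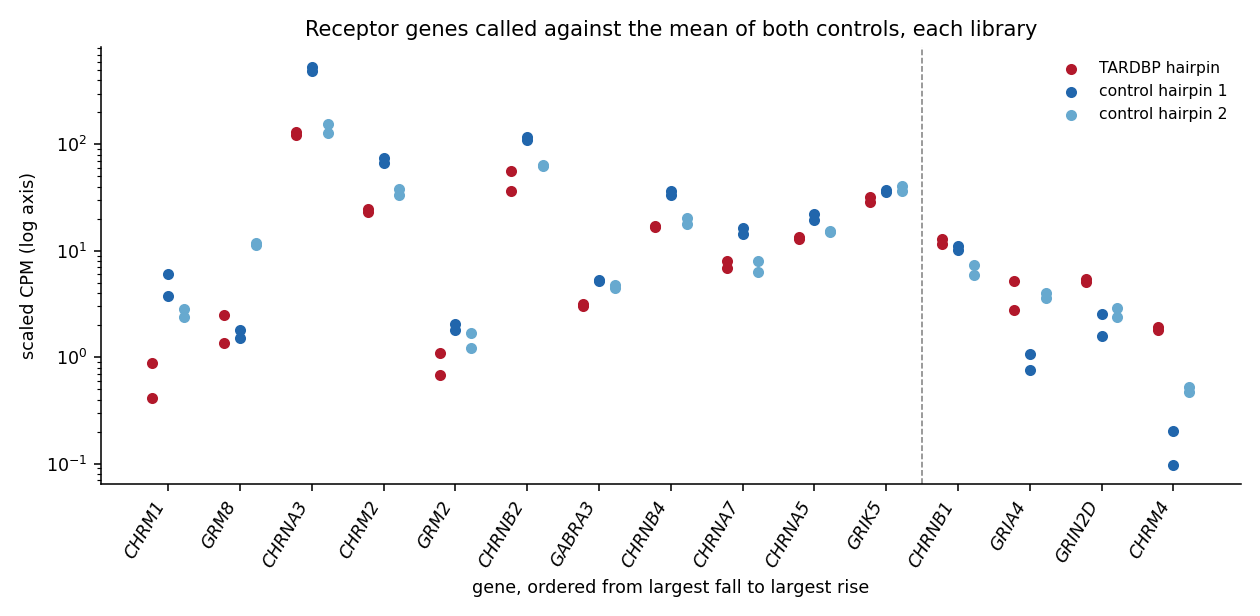
Scaled CPM (log axis) in each library for 15 of the 17 receptor genes called against the mean of the controls; points are libraries, coloured by hairpin group. CHRM4, CHRNB1 and GRIN2D lie above all control libraries, while CHRNA3, CHRNA7, GRIA4 and GRM8 overlap the libraries of 1 control group.

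In summed CPM, the nicotinic genes set the control groups furthest apart. CHRNA3 codes for the alpha-3 subunit of the ganglionic receptor. Its level was 123 and 132 CPM in the TARDBP hairpin libraries, 532 and 495 in control hairpin 1, and 129 and 155 in control hairpin 2. The TARDBP hairpin libraries thus sat next to control hairpin 2, with 1 of them between its libraries. The log2 fold change was −2.01 (SE 0.112, adjusted p = 1.11e-05) against control hairpin 1 and −0.16 (SE 0.109, adjusted p = 0.258) against control hairpin 2. Between the controls themselves CHRNA3 was 3.60-fold lower under control hairpin 2 (log2 −1.85, SE 0.111, adjusted p = 2.80e-05).

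Its neighbours and partners showed the same arrangement. CHRNB4, the beta-4 subunit, read 17.2 and 16.7 CPM under the TARDBP hairpin, 36.4 and 33.3 under control hairpin 1, and 18 and 20.3 under control hairpin 2. It was lower against control hairpin 1 (log2 −1.04, SE 0.117, adjusted p = 0.000235), and its value against control hairpin 2 was −0.18 (SE 0.119, adjusted p = 0.246). CHRNA5, an accessory alpha-5 subunit, read 13.4 and 12.9, 19.4 and 22.2, and 14.9 and 15.5 CPM in the same order of groups. Both TARDBP hairpin libraries were the lowest 2 of the 6, by a margin that was called against control hairpin 1 (log2 −0.66, SE 0.125, adjusted p = 0.0034) and not against control hairpin 2 (−0.21, SE 0.127, adjusted p = 0.208). Without replicate 2 of the TARDBP hairpin, the call of CHRNA5 against the mean of the controls was lost (log2 −0.40, adjusted p = 0.0758). CHRNA5 and CHRNA3 lie on opposite, overlapping strands; the library kit keeps strand, but whether the counting used it is not stated, so reads of the overlap cannot be assigned with certainty.

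CHRNB2, the beta-2 subunit of the common brain receptor, had 56.1 and 36.7 CPM in the TARDBP hairpin libraries, 111 and 116 in control hairpin 1, and 62.1 and 64.6 in control hairpin 2. The pair of TARDBP hairpin libraries differed more from each other than either control pair did. Its fold change was −1.29 (SE 0.171, adjusted p = 0.000533) against control hairpin 1 and −0.45 (SE 0.171, adjusted p = 0.0558) against control hairpin 2. CHRNA7 forms the homomeric alpha-7 receptor, and read 8.02 and 6.86, 14.4 and 16.5, and 8.11 and 6.27 CPM. Its TARDBP hairpin libraries lay within the range of control hairpin 2, and the log2 values were −1.06 (SE 0.173, adjusted p = 0.00162) and 0.05 (SE 0.181, adjusted p = 0.828). The call of CHRNA7 against the mean of the controls was lost without replicate 2 of the TARDBP hairpin, replicate 2 of control hairpin 1 or replicate 1 of control hairpin 2 (adjusted p between 0.0708 and 0.165). CHRNA7 shares a duplicated stretch with CHRFAM7A, which held 10 to 21 counts per library, so some reads could belong to either.

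CHRNB1 codes for the beta-1 subunit of the muscle receptor and was the only tested nicotinic gene called higher. Its levels were 11.5 and 13.0 CPM under the TARDBP hairpin, 11 and 10.1 under control hairpin 1, and 7.42 and 5.94 under control hairpin 2. The difference was called against control hairpin 2 (log2 0.88, SE 0.164, adjusted p = 0.00279) and not against control hairpin 1 (0.22, SE 0.158, adjusted p = 0.301). The call against the mean of the controls (0.55, SE 0.137, adjusted p = 0.0111) was lost without replicate 2 of the TARDBP hairpin (0.45, adjusted p = 0.0854). CHRNA10, known from hair cells, was level, with values between 1.37 and 1.91 CPM. Of the 7 tested nicotinic genes, 5 were lower against control hairpin 1, none was lower against control hairpin 2, and 6 were lower in control hairpin 2 than in control hairpin 1. Over all features tested, 21.8%, 26.2% and 20.4% were lower in these comparisons, in that order.

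The muscarinic genes held the largest fold changes of the acetylcholine class. CHRM1, a Gq-coupled receptor, had 0.879 and 0.415 CPM in the TARDBP hairpin libraries, 3.77 and 6.07 in control hairpin 1, and 2.37 and 2.83 in control hairpin 2. The groups did not overlap, and CHRM1 was 5.49-fold lower against the mean of the controls (log2 −2.46, SE 0.362, adjusted p = 0.000852). It was lower against each control, by −2.92 (SE 0.382, adjusted p = 0.000513) and −2.0 (SE 0.409, adjusted p = 0.00431). CHRM2, a Gi-coupled receptor, read 24.8 and 23.4, 66.6 and 73.9, and 38.4 and 33.5 CPM. It too was lower against each control, by −1.55 (SE 0.112, adjusted p = 2.90e-05) and −0.58 (SE 0.113, adjusted p = 0.00342), with the larger part of the distance against control hairpin 1.

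CHRM4, the other Gi-coupled subtype, went the opposite way. It had 37 and 35 counts in the TARDBP hairpin libraries, 4 and 2 in control hairpin 1 and 10 and 10 in control hairpin 2, or 1.91 and 1.82, 0.204 and 0.0979, and 0.526 and 0.471 CPM. All control libraries were below the TARDBP hairpin libraries, and the fold was 6.67 against the mean of the controls (log2 2.74, SE 0.314, adjusted p = 0.000234). Against each control the log2 values were 3.58 (SE 0.426, adjusted p = 0.000319) and 1.89 (SE 0.340, adjusted p = 0.00228). The count filter scales with library size, and only under the TARDBP hairpin did both libraries pass it for CHRM4. CHRM4 was thus tested only because of the group where it was high. CHRM4 overlaps MDK, the gene of the secreted growth factor midkine, in the reference annotation. MDK held 4845 and 4179 counts under the TARDBP hairpin, 3881 and 5365 under control hairpin 1, and 7407 and 9841 under control hairpin 2, so it did not follow the order of CHRM4. A part of misassigned MDK reads in the CHRM4 counts was not tested.

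CHRM3, a Gq-coupled subtype, read 24.7 and 26.3 CPM under the TARDBP hairpin, 14.4 and 20.8 under control hairpin 1, and 30.8 and 27.8 under control hairpin 2. It lay between the controls, higher than control hairpin 1 (log2 0.53, SE 0.169, adjusted p = 0.0329). That call was lost without either replicate of the TARDBP hairpin, replicate 1 of control hairpin 1 or replicate 2 of control hairpin 2 (adjusted p between 0.0518 and 0.169). CHRM5, a Gq-coupled subtype, read 0.414 and 0.727, 0.306 and 0.0979, and 0.632 and 0.660 CPM and was not called against either control. It overlaps AVEN, which held 174 to 360 counts per library, and misassigned AVEN reads were not tested.

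**Figure D3:**
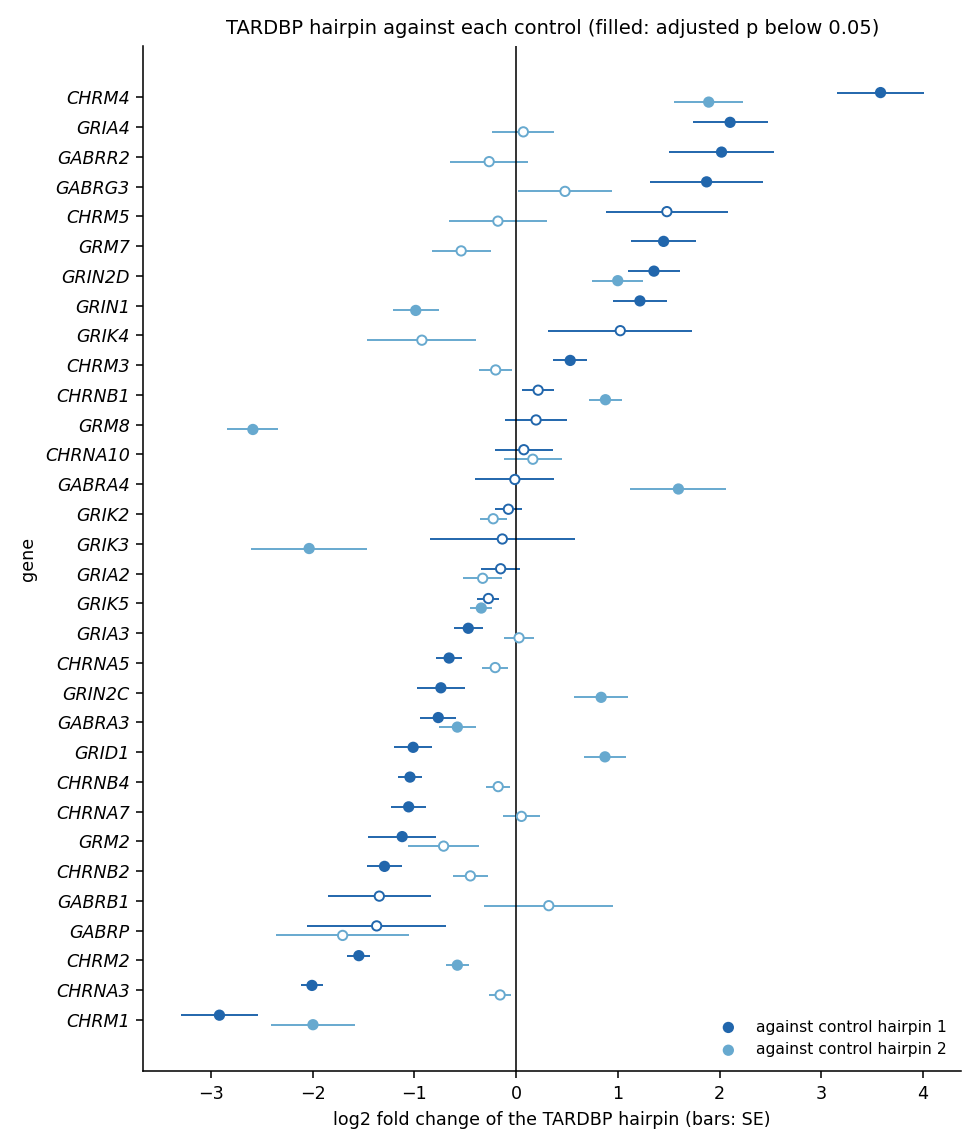
Log2 fold change (horizontal axis) of the TARDBP hairpin against control hairpin 1 (dark) and control hairpin 2 (light) for 32 of the 34 tested receptor genes, 1 gene a row, with bars for 1 SE and filled points at an adjusted p below 0.05; both sets share the TARDBP hairpin libraries. CHRNA3 lies at −2.01 against control hairpin 1 and −0.16 against control hairpin 2, CHRM4 is on the right in both, and GRIN1, GRID1 and GRIN2C have opposite signs.

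Among the 7 tested GABA receptor genes, 2 were lower and none higher against the mean of the controls. Over all features tested, 24.3% were lower and 23.9% higher. GABRG3, a gamma subunit, had 1.60 and 0.623 CPM in the TARDBP hairpin libraries, 0.255 and 0.343 in control hairpin 1, and 0.842 and 0.754 in control hairpin 2. It was not called against the mean of the controls (log2 1.18, SE 0.431, adjusted p = 0.0508). It was higher than control hairpin 1 (1.87, SE 0.554, adjusted p = 0.0251), a call lost without replicate 1 of the TARDBP hairpin or either replicate of control hairpin 1 (adjusted p between 0.0733 and 0.190).

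GABRA3, an alpha subunit, gave 3.00 and 3.17 CPM under the TARDBP hairpin, 5.20 and 5.29 under control hairpin 1, and 4.74 and 4.48 under control hairpin 2. The control groups were close to each other here (log2 −0.19, SE 0.169, adjusted p = 0.398), and the TARDBP hairpin libraries were below both. The change was −0.67 (SE 0.158, adjusted p = 0.00828) against their mean. Against control hairpin 2 alone it was −0.58 (SE 0.179, adjusted p = 0.0265), a call lost without any 1 of the 4 libraries of that comparison (adjusted p between 0.0689 and 0.113). The other tested GABA receptor genes were scarce and were not called against the mean of the controls. GABRA4, an alpha subunit of extrasynaptic receptors, had 0.931 and 1.19 CPM under the TARDBP hairpin, 0.765 and 1.37 under control hairpin 1, and 0.263 and 0.424 under control hairpin 2. GABRB1, its neighbour on chromosome 4, had 0.310 and 0.312, 0.816 and 0.783, and 0.105 and 0.377 CPM. In both genes control hairpin 2 was the lowest group by its mean. GABRR2, a rho subunit known from retina, had 0.621 and 1.04, 0.204 and 0.196, and 1.16 and 0.848 CPM, and here control hairpin 1 was lowest. GABRP, a pi subunit known from non-neuronal tissues, lay between 0.103 and 1.08 CPM.

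The ionotropic glutamate receptor genes split by member. GRIN2D, the NMDA subunit of early development and of interneurons, read 5.07 and 5.45 CPM under the TARDBP hairpin, 2.55 and 1.57 under control hairpin 1, and 2.37 and 2.87 under control hairpin 2. The controls did not separate from each other, and the TARDBP hairpin libraries were above all 4 (log2 1.18, SE 0.211, adjusted p = 0.00225). Against each control the values were 1.36 (SE 0.257, adjusted p = 0.00329) and 1.00 (SE 0.248, adjusted p = 0.0104). The latter was lost without replicate 1 of control hairpin 2 (0.87, adjusted p = 0.0665). GRIN2D overlaps KDELR1 in the reference annotation, which held 1125 to 2008 counts per library, and misassigned KDELR1 reads were not tested. GRIN1, the subunit every NMDA receptor needs, stood between the controls at 4.86 and 3.17, 1.73 and 1.71, and 8.74 and 7.21 CPM. It was higher than control hairpin 1 (1.22, SE 0.268, adjusted p = 0.00678) and lower than control hairpin 2 (−0.99, SE 0.227, adjusted p = 0.00735). The call against control hairpin 2 was lost without its replicate 1 (−0.84, adjusted p = 0.0520).

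GRIN2C, an NMDA subunit best known from the cerebellum, had the reverse order. It read 2.59 and 4.0 CPM under the TARDBP hairpin, 5.81 and 5.19 under control hairpin 1, and 1.90 and 1.79 under control hairpin 2. The log2 values were −0.74 (SE 0.234, adjusted p = 0.0328) and 0.84 (SE 0.265, adjusted p = 0.0286). The first was lost without replicate 1 of the TARDBP hairpin, either replicate of control hairpin 1 or replicate 1 of control hairpin 2 (adjusted p between 0.0521 and 0.162). The second was lost without replicate 2 of the TARDBP hairpin or either replicate of control hairpin 2 (adjusted p between 0.0862 and 0.192). GRID1, a delta receptor gene, resembled GRIN2C, with 9.05 and 6.60, 15.7 and 15.9, and 4.79 and 3.77 CPM. Its values were −1.01 (SE 0.185, adjusted p = 0.00275) and 0.87 (SE 0.203, adjusted p = 0.00778), the latter lost without replicate 2 of control hairpin 2 (0.68, adjusted p = 0.0772).

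GRIA4, an AMPA subunit, read 5.22 and 2.75 CPM under the TARDBP hairpin, 0.765 and 1.08 under control hairpin 1, and 3.58 and 4.0 under control hairpin 2. The control hairpin 2 libraries lay between the 2 TARDBP hairpin libraries. The call against the mean of the controls (log2 1.09, SE 0.284, adjusted p = 0.0132) was lost without replicate 1 of the TARDBP hairpin (0.55, adjusted p = 0.154), and the value against control hairpin 2 was 0.07 (SE 0.304, adjusted p = 0.862). GRIA2, the subunit that sets calcium permeability, lay between 4.93 and 7.21 CPM in all libraries and was not called in any comparison. GRIA3 was 17.1 and 17.9, 25.8 and 22.6, and 19.2 and 15.2 CPM, with −0.22 (SE 0.126, adjusted p = 0.181) against the mean of the controls.

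Of the kainate genes, GRIK5 read 31.9 and 28.7 CPM under the TARDBP hairpin, 35.7 and 37.4 under control hairpin 1, and 36.5 and 40.3 under control hairpin 2. This subunit was lower than the mean of the controls by a small amount (log2 −0.31, SE 0.0944, adjusted p = 0.0264), with no overlap of libraries. The call was lost without replicate 2 of the TARDBP hairpin, of control hairpin 1 or of control hairpin 2 (adjusted p between 0.0565 and 0.178). GRIK5 overlaps ZNF574, which held 293 to 474 counts per library, and misassigned ZNF574 reads were not tested. GRIK2, the other abundant kainate gene, lay between 19.4 and 25.5 CPM in all libraries, at −0.15 (SE 0.117, adjusted p = 0.319). The remaining kainate genes were rare. GRIK3 had 0.207 and 0.519 CPM under the TARDBP hairpin, 0.255 and 0.539 under control hairpin 1, and 2.05 and 0.989 under control hairpin 2. GRIK4 had 0.362 and 0.260, 0.0510 and 0.245, and 0.579 and 0.612 CPM. Both were highest in control hairpin 2 and neither was called against the mean of the controls.

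Of the 4 tested metabotropic genes, 1 was called higher and 2 lower against the mean of the controls, beside 23.9% and 24.3% of all features. GRM2, a Gi-coupled group II receptor, had 1.09 and 0.675 CPM in the TARDBP hairpin libraries, 1.78 and 2.06 in control hairpin 1, and 1.68 and 1.22 in control hairpin 2. Both TARDBP hairpin libraries were the lowest of the 6. Its lower call (−0.92, SE 0.305, adjusted p = 0.036) was lost without replicate 2 of the TARDBP hairpin, either replicate of control hairpin 1 or replicate 1 of control hairpin 2 (adjusted p between 0.0522 and 0.22).

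GRM8 and GRM7 are Gi-coupled group III receptors found at presynaptic terminals. GRM8 read 2.48 and 1.35 CPM under the TARDBP hairpin, 1.53 and 1.81 under control hairpin 1, and 11.4 and 11.7 under control hairpin 2. The TARDBP hairpin libraries enclosed control hairpin 1 (0.20, SE 0.305, adjusted p = 0.635) and were far below control hairpin 2 (−2.59, SE 0.251, adjusted p = 0.000105). Between the controls GRM8 was 6.89-fold higher under control hairpin 2 (2.78, SE 0.255, adjusted p = 0.000128). GRM7 had 18.4 and 20.4, 4.13 and 9.99, and 25.6 and 30.7 CPM. It lay between the controls, above control hairpin 1 (1.45, SE 0.316, adjusted p = 0.00654) and not called against control hairpin 2 (−0.54, SE 0.290, adjusted p = 0.152).

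By number of calls, the 2 control hairpins differed from each other in 25 of these genes, beside 17 for the TARDBP hairpin against their mean. Of the 34 tested genes, 10 were higher and 15 lower under control hairpin 2, beside 22.8% and 20.4% of all features. Among them, GRIK4 reached 10 counts only under control hairpin 2 and GABRB1 only under control hairpin 1. Each was thus tested only because of the group where it was high. With no filter on low counts, the calls of GRIK4 (higher, adjusted p = 0.0527) and CHRM5 (higher, adjusted p = 0.0722) were lost. By class, 3 acetylcholine receptor genes were higher and 8 lower of 12, 1 GABA receptor gene was higher and 3 lower of 7, and 6 glutamate receptor genes were higher and 4 lower of 15. Against control hairpin 1 the TARDBP hairpin gave 9 higher and 13 lower genes, beside 21.1% and 21.8% of all features. Against control hairpin 2 it gave 7 higher and 8 lower, beside 24.0% and 26.2%, or 50.2% in either direction. With replicate 1 or replicate 2 of control hairpin 2 left out, fewer receptor genes and fewer of all features were called against that control in both directions.

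Some genes were called against 1 control and are not described as such above. Against control hairpin 1, GRIA4 was higher (log2 2.10, SE 0.368, adjusted p = 0.00225) and GABRA3 lower (−0.76, SE 0.177, adjusted p = 0.00865). GABRR2 was also higher (2.02, SE 0.512, adjusted p = 0.013) and GRM2 lower (−1.12, SE 0.337, adjusted p = 0.0271), calls that were lost without replicate 2 of the TARDBP hairpin or either replicate of control hairpin 1 (adjusted p between 0.0576 and 0.136). GRIA3 was lower (−0.47, SE 0.144, adjusted p = 0.0286), but not without either replicate of the TARDBP hairpin or replicate 1 of control hairpin 1 (adjusted p between 0.0765 and 0.153). Against control hairpin 2, GABRA4 was higher (1.60, SE 0.472, adjusted p = 0.0218), a call lost without replicate 2 of the TARDBP hairpin or either replicate of control hairpin 2 (adjusted p between 0.0550 and 0.105). GRIK3 was lower (−2.03, SE 0.567, adjusted p = 0.0171), but not without replicate 1 of the TARDBP hairpin or of control hairpin 2 (adjusted p between 0.0919 and 0.104). GRIK5 was lower as well (−0.34, SE 0.108, adjusted p = 0.0281), but not without replicate 2 of the TARDBP hairpin or of control hairpin 2 (adjusted p between 0.126 and 0.150).

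Of the 25 receptor genes called between the controls, 13 kept the call when any 1 library was left out: CHRM2, CHRM3, CHRNA3, CHRNA7, CHRNB2, CHRNB4, GABRR2, GRIA4, GRID1, GRIN1, GRIN2C, GRM7 and GRM8. The other 12 included CHRM1, CHRM4, CHRM5, CHRNA5, CHRNB1, GABRA4, GABRB1, GRIA3, GRIK3 and GRIK4, whose calls were each lost without 2 to 4 of the libraries in turn (adjusted p between 0.050 and 0.259). Without replicate 1 of control hairpin 2 fewer receptor genes were called higher, and without its replicate 2 fewer were called lower. Over all features, too, fewer were called in both directions in each of these fits. GABRR2, with a log2 value of 2.28 (SE 0.494, adjusted p = 0.00666), was the GABA receptor gene that moved most between them. The largest fall was that of GRID1, from 15.7 and 15.9 to 4.79 and 3.77 CPM (−1.89, SE 0.196, adjusted p = 0.000233).

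**Figure D4:**
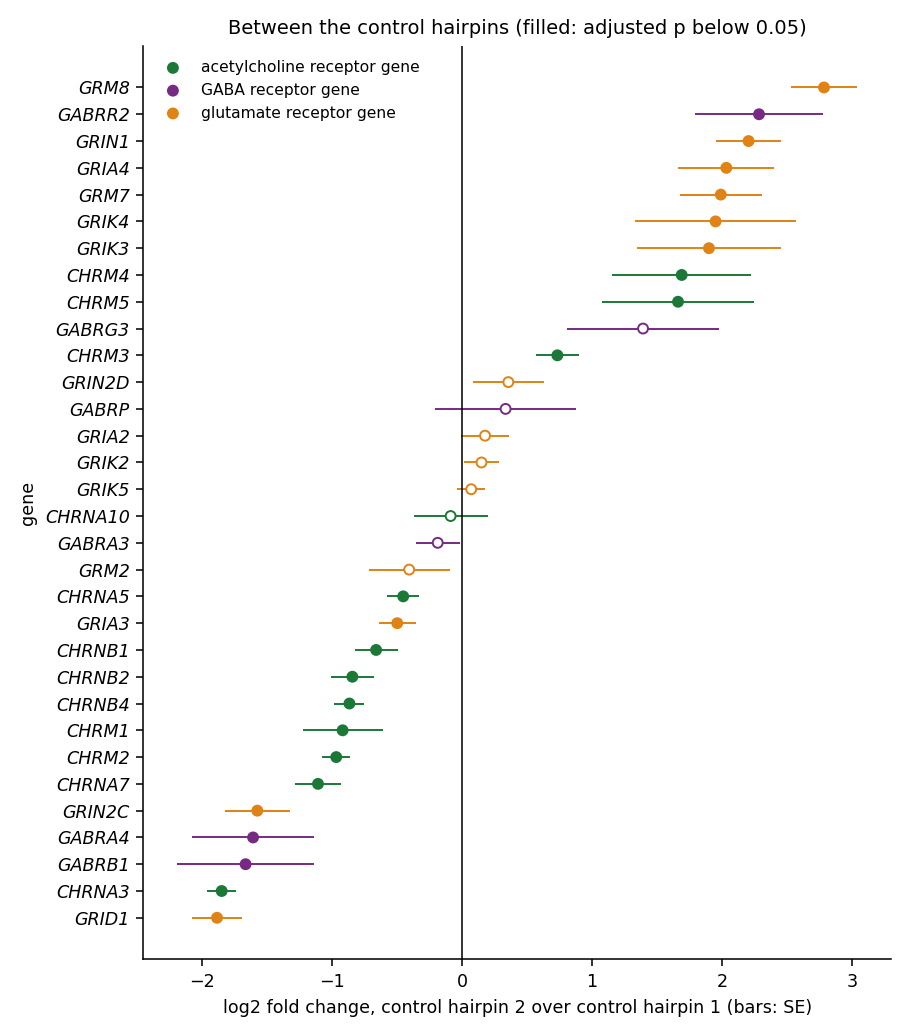
Log2 fold change of control hairpin 2 over control hairpin 1 for 32 of the 34 tested receptor genes, with bars for 1 SE; filled points have an adjusted p below 0.05 and colours give the transmitter class. GRM8 is at the top at 2.78 and GRID1 at the bottom at −1.89, with CHRNA3 next to it at −1.85.

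The genes that make, move and remove the 3 transmitters were read from lists. Of 9 tested glutamate genes (15 listed), 3 were higher and 5 lower against the mean of the controls. Over all features tested, 23.9% were higher and 24.3% lower in that comparison. The median of the 9 was −0.40, beside 0.04 over all features. SLC1A4, a neutral amino acid transporter, read 3.31 and 3.79 CPM under the TARDBP hairpin, 11 and 12.1 under control hairpin 1, and 12.3 and 11.7 under control hairpin 2 (log2 −1.73, SE 0.144, adjusted p = 5.17e-05). GLUL, the glutamine synthetase, was lower by less (−0.49, SE 0.0715, adjusted p = 0.000767), and the glutamate transporter SLC1A1 was lower (−1.03, SE 0.158, adjusted p = 0.00104) mainly against control hairpin 2. The amino acid transporter SLC38A1 was lower by −0.40 (SE 0.0744, adjusted p = 0.00269), but was not called against control hairpin 1 (−0.15, adjusted p = 0.190). The glutaminase GLS2 was higher (0.97, SE 0.180, adjusted p = 0.00266), but was not called against control hairpin 1 (0.26, adjusted p = 0.334). The calls of SLC1A5 (lower) and SLC38A2 (higher) were each lost without replicate 2 of the TARDBP hairpin (adjusted p = 0.103 and 0.112). The vesicular glutamate transporters SLC17A6, SLC17A7 and SLC17A8 were below the filter.

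Of 5 tested GABA genes (9 listed), 1 was higher and 3 lower, beside 23.9% and 24.3% of all features. Their median was −0.85. ABAT, the GABA transaminase that breaks GABA down, was lower against each control by nearly the same amount. It read 14.2 and 14.9 CPM, 41.0 and 45.9, and 48.3 and 39.1 (−1.58, SE 0.122, adjusted p = 3.51e-05). The betaine and GABA transporter SLC6A12 was higher (1.42, SE 0.374, adjusted p = 0.0138), but not without replicate 1 of the TARDBP hairpin (adjusted p = 0.0761). The calls of GAD1 and the GABA transporter SLC6A11, both lower, were each lost without replicate 2 of the TARDBP hairpin (adjusted p = 0.179 and 0.185) and without replicate 1 of either control. GAD1 also lost its call without replicate 1 of the TARDBP hairpin, and SLC6A11 without replicate 2 of control hairpin 1.

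Of 8 tested acetylcholine genes (8 listed), 1 was higher and 4 lower, beside 23.9% and 24.3% of all features. Their median was −0.61. The choline transporter SLC5A7 read 15.9 and 12.1, 21.6 and 21.7, and 44.1 and 44.0 CPM (−1.14, SE 0.125, adjusted p = 0.000187). The vesicular acetylcholine transporter SLC18A3 was lower as well (−1.06, SE 0.204, adjusted p = 0.00316), with −0.19 (adjusted p = 0.534) against control hairpin 1 and −1.93 (adjusted p = 0.00028) against control hairpin 2. For both genes control hairpin 2 was the higher control, the reverse of the nicotinic receptor genes. The choline transporter SLC44A1 was higher (0.56, SE 0.0898, adjusted p = 0.00132). That rise was against control hairpin 1 (1.16, adjusted p = 9.28e-05) and not against control hairpin 2 (−0.05, adjusted p = 0.733). The call of PRIMA1, the anchor of acetylcholinesterase, was lost without replicate 2 of the TARDBP hairpin (adjusted p = 0.0785), and that of the esterase ACHE without either of its replicates, replicate 2 of control hairpin 1 or replicate 1 of control hairpin 2 (adjusted p up to 0.102). Both had been called lower.

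Of 35 tested partners of glutamate receptors (43 listed), 4 were higher and 14 lower, beside 23.9% and 24.3% of all features. Their median was −0.26. CNIH2, an AMPA receptor auxiliary subunit, read 3.26 and 2.49 CPM under the TARDBP hairpin, 16.5 and 21.5 under control hairpin 1, and 16.3 and 22.8 under control hairpin 2. Its log2 change was −2.74 (SE 0.223, adjusted p = 4.57e-05), and the controls were level. CNIH3, of the same family, was higher (1.24, SE 0.166, adjusted p = 0.000514). CACNG4, a stargazin-like AMPA partner, was lower (−1.38, SE 0.131, adjusted p = 9.65e-05), as were OLFM1 (−1.73, SE 0.120, adjusted p = 2.21e-05) and NCDN, which binds metabotropic receptors (−0.92, SE 0.0907, adjusted p = 0.000112). The lipase ABHD6 and the scaffold HOMER1 were higher (0.85 and 0.49, SE 0.121 and 0.0917, adjusted p = 0.000687 and 0.00266). HOMER1 was not called against control hairpin 2 (0.24, adjusted p = 0.0961).

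Of 16 tested partners of GABA receptors (19 listed), 6 were higher and 5 lower, beside 23.9% and 24.3% of all features. Their median was −0.10. GPHN, the scaffold gephyrin, read 38.0 and 37.0 CPM, 26.3 and 29.9, and 27.7 and 27.7 (0.43, SE 0.0906, adjusted p = 0.0051). LHFPL4, which clusters GABA-A receptors, was lower (−1.11, SE 0.158, adjusted p = 0.00072), as was MAGED1 (−0.89, SE 0.106, adjusted p = 0.000273). PLCL1 was higher (0.75, SE 0.145, adjusted p = 0.00323). KCTD12, an auxiliary subunit of GABA-B receptors, read 407 and 473 CPM, 131 and 151, and 177 and 141 (1.56, SE 0.112, adjusted p = 2.68e-05). KCTD16 of the same family was higher as well (1.72, SE 0.136, adjusted p = 4.00e-05), while the GABA-B receptor gene GABBR2 had at most 4 counts in any library. TRAK2 (higher), UBQLN1, TRAK1 and CLPTM1 (lower) lost their calls without replicate 2 of the TARDBP hairpin (adjusted p = 0.172, 0.0792, 0.0883 and 0.292). TRAK1 also lost its call without replicate 1 of the TARDBP hairpin, and TRAK2 and CLPTM1 without replicate 2 of either control.

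Of 17 tested partners of nicotinic receptors (21 listed), 4 were higher and 3 lower, beside 23.9% and 24.3% of all features. Their median was 0.00. LYNX1, a toxin-like protein that dampens nicotinic receptors, read 50.9 and 45.7 CPM under the TARDBP hairpin, 39.5 and 39.8 under control hairpin 1, and 14.3 and 12 under control hairpin 2 (1.08, SE 0.0988, adjusted p = 8.03e-05). It was not called against control hairpin 1 (0.29, adjusted p = 0.0766). RAPSN, the rapsyn scaffold of the muscle receptor, was low throughout. It had 26 and 25 counts under the TARDBP hairpin, 7 and 6 under control hairpin 1, and 3 and 7 under control hairpin 2. It was higher under the TARDBP hairpin (2.19, SE 0.343, adjusted p = 0.00114), but passed the count filter only through that group. UBXN2A, which affects the trafficking of alpha-3 receptors, was also higher (0.74, SE 0.127, adjusted p = 0.00185). It was not called against control hairpin 2 (0.37, adjusted p = 0.0656). DOK7, an activator of the muscle kinase MUSK, passed the count filter only through the TARDBP hairpin group, like RAPSN. It lost its higher call without replicate 1 of the TARDBP hairpin (log2 1.65). LY6E, called lower, lost it without replicate 2 of the TARDBP hairpin (adjusted p = 0.0710). LYPD6 and CRELD2, also called lower, lost it without either of those replicates (adjusted p up to 0.152 and 0.170), and without replicate 2 of either control. CRELD2 lost it without replicate 1 of control hairpin 2 as well.

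Of the 5 receptor genes of the same ligands outside the symbol rule, 2 were tested, CHRNE only because of its counts under the TARDBP hairpin. CHRNE, the adult muscle subunit, was called (1.31, SE 0.462, adjusted p = 0.0446), and this call was lost without either replicate of the TARDBP hairpin, replicate 1 of control hairpin 1 or replicate 2 of control hairpin 2 (adjusted p between 0.0951 and 0.183).

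Markers of the line and of other cells moved beside these genes. Over all features tested, 23.9% were higher and 24.3% lower against the mean of the controls, the comparison counted here. Of 12 tested sympathetic noradrenergic markers (13 listed), 2 were higher and 8 lower under the TARDBP hairpin, and their summed level was 1120.1 to 1268 CPM, 2085 to 2357 under control hairpin 1 and 1633 to 1816 under control hairpin 2. This is the same order of groups as that of the summed nicotinic genes, and its part in that result was not tested. Tyrosine hydroxylase (TH), a defining enzyme of such cells, had at most 3 counts in any library. Fibroblast markers (7 of 8 tested, 1 higher and 4 lower) summed to 227 to 234, 234 to 284 and 365 to 437 CPM, with PRRX1 at 0. Schwann cell or glial markers (2 of 8 tested, 1 higher) summed to at most 4.86 CPM and immune markers (1 of 8 tested, none called) to at most 20.2, with PTPRC at 6 counts or fewer. Epithelial or packaging-cell markers (2 of 6 tested, 1 higher) summed to 24.3 to 29.2, 8.26 to 10.7 and 77.5 to 125 CPM, mostly KRT18. The gene called higher was EPCAM (log2 2.57, SE 0.383, adjusted p = 0.000898), and KRT18 was not called (−0.46, SE 0.244, adjusted p = 0.149). Endothelial (1 of 5 tested, 1 lower) and skeletal muscle markers (1 of 5 tested, MYH3, higher) were low, with MYOD1 at 2 counts or fewer beside the muscle receptor genes CHRNB1 and CHRNE and the scaffold gene RAPSN.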

How the data were processed

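The deposited files hold whole-number counts per gene and per repeat family for each library, unnormalized by the authors. RNA was depleted of ribosomal RNA and made into strand-specific libraries, per the labels' protocols. STAR 2.5.2b and the build hg19 stand in the submitters' processing notes; the counter, annotation and strand setting are not stated. From the counts, edgeR 4.0.16 (R 4.3.3, limma 3.58.1) was run with TMM scaling, a filter by group (minimum count 10) and its quasi-likelihood test on all 6 libraries and 3 groups (3 residual degrees of freedom), with Benjamini-Hochberg adjustment over 17163 features and a threshold of 0.05. CPM are counts over TMM-scaled library sizes. Counting 1 read equals about 0.05 CPM, which limits the lowest genes. DESeq2 1.42.0 and other scalings were alternatives, and the fit was tested on simulated data. The main comparison, the lists and the receptor genes were chosen with earlier results of these data known. Named genes follow a rule, some results not being reported here: every tested receptor gene, and of each list the called genes, up to 4 of lowest p where a direction has over 5, with sequences for the called receptor genes of lowest p in each class. Gene neighbours, promoters and exon lengths came from RefSeq (GRCh38.p14) and GENCODE v29, used by symbol and not joined with hg19 positions.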

Additional observations from a re-analysis of the deposited data

How the results depend on the processing

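The number of receptor genes called against the mean of the controls was within 1.5 times of 5 higher and 12 lower under DESeq2 size factors, library totals alone, DESeq2's Wald test, no filter on low counts, genes alone and the replicate block, and fell to 3 and 1 when the 4 controls were 1 group. CHRM1, CHRM4 and GRIN2D were called in that comparison under every setting run. With 1 library left out at a time, the counts ranged from 4 to 6 higher and 9 to 12 lower against the mean of the controls, 6 to 9 and 10 to 14 against control hairpin 1, 4 to 7 and 4 to 10 against control hairpin 2, and 6 to 11 and 8 to 15 between the controls; a lone remaining library is then assumed to vary like the other groups. Over all features, fewer were called in both directions with any 1 library left out than with all 6 libraries. The replicate block gave 5 higher and 13 lower against the mean of the controls. Deviations of replicate 1 from replicate 2 correlated at −0.23 and −0.25 between the TARDBP hairpin and the controls, and at 0.23 between the controls. Each group gives only 1 such difference per feature, so whether the numbers pair the samples cannot be told from them. Under the block the calls of GRIN2C against control hairpin 1 (adjusted p = 0.0507) and of CHRM1, CHRM5 and GRIK4 between the controls (0.0589, 0.0738 and 0.0508) were lost in edgeR's quasi-likelihood test. DESeq2's Wald test lost GRM2 against the mean of the controls and against control hairpin 1, and GRIN2C against each control. It also lost GABRA3 and GABRA4 against control hairpin 2 (adjusted p between 0.0548 and 0.0947 for all of these). Between the controls it lost CHRM1, CHRM4, CHRM5, GABRA4, GABRB1 and GRIK4 among others (adjusted p between 0.0598 and 0.149). TARDBP was lower under every setting. Without the filter, 19 of the 29 receptor genes below it could be fitted, and GABRA5 was then called lower against control hairpin 2. Between the controls, 3 of them were then called higher in control hairpin 2, GRIA1 and GRM5 among them. No called value changed sign, and the causes of lost calls were not tested. Depth limits the genes under about 1 CPM, such as CHRM4, GABRB1 and GRIK4, whose counts in some libraries were below 10.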
